A study of Homo sapiens with 90 samples.

Results

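Imazalil at 1 and 3 µM was compared with the DMSO vehicle in HepG2, a widely used cell line from a human liver tumour. The members were 6 arrays, 3 at 1 µM and 3 at 3 µM, chosen by the dose in their titles out of the 90 array columns deposited. They were set against the 3 DMSO columns whose titles say that they were normalized together with the imazalil arrays. The study exposed HepG2 cells for 24 h to imazalil, to fenbuconazole or to the herbicide 2,4-D, each at 9 doses with 3 arrays per dose, starting a day after the cells were plated in multiwell plates. The imazalil set held 30 columns, 27 of treated cells at doses between 0.001 and 10 µM and the 3 of DMSO. Every group carried the same DMSO vehicle in the same medium, and the 3 DMSO arrays served all 3 compounds. HepG2 is a single tumour line, so all values describe that line alone. The labels do not say whether replicates were separate cultures, so the p values measure only the spread between these arrays, which may be technical.

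Imazalil is an azole fungicide with an imidazole ring. Azoles act on fungi by blocking the cytochrome P450 that demethylates lanosterol in sterol synthesis, and the human counterpart of that enzyme is encoded by CYP51A1. In liver cells many azoles also act on receptors that sense foreign chemicals. One of these, the aryl hydrocarbon receptor (AHR), moves to the nucleus when a ligand binds it, pairs with ARNT and switches on genes of chemical metabolism, of which CYP1A1 is the classic readout in HepG2. Others, PXR and CAR, act on CYP3A4, CYP2B6 and ALAS1.

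Each gene was followed through 1 probe set, the brightest of those with a single gene symbol, which gave 19774 genes. Levels are log2 intensities, differences are log2 differences between group means, and a gene was called when its Benjamini-Hochberg adjusted p in limma was under 0.05. Array medians over these genes lay between 3.91 and 3.92 at 3 µM, between 3.90 and 3.94 at 1 µM and between 3.90 and 3.94 in DMSO. Replicates correlated at r between 0.9959 and 0.9975 across genes within the 3 groups. In the ACTB control of 3 µM replicate 2 the 3′ probe set exceeded the 5′ one by 0.61, against 0.28 and 0.30 on the other 3 µM arrays. Its GAPDH control differed by -0.09 in the same way, against -0.16 and -0.09 on those arrays. High ACTB values also occurred on other arrays of the set, such as 0.56 on DMSO replicate 1 and 0.56 on 0.01 µM replicate 1. The hepatocyte markers ALB, AFP, APOA1, APOB, TTR, TF, SERPINA1 and FGB were bright, with means between 10.02 and 13.06 in the 6 imazalil arrays and between 10.07 and 13.10 in DMSO. Means of 5 endothelial markers lay between 2.46 and 3.41 in the imazalil arrays and between 2.49 and 3.64 in DMSO. LYZ was the brightest of the blood and mesenchymal markers, with a mean of 10.81 in the imazalil arrays and 10.94 in DMSO, and none of the 25 marker genes measured for these and for mesenchymal and blood cells was called. In these bulk samples, less RNA per cell and fewer cells of a kind cannot be told apart.

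CYP1A1, which encodes the P450 that oxidises polycyclic hydrocarbons, was the 1 gene called when the doses were pooled, and it was higher. That is 0.00506% of the 19774 genes. No gene was called as lower, and at an unadjusted p under 0.05 there were 303 genes higher and 301 lower, 3.05% of all. The second lowest adjusted p was 0.9999.

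The level of CYP1A1 was 5.74, 5.58 and 5.99 at 1 µM, 6.56, 6.22 and 6.85 at 3 µM, and 4.37, 4.85 and 4.63 in DMSO. All 6 imazalil arrays lay above all 3 DMSO arrays, and each 3 µM array lay above each 1 µM array. Of all genes, 0.905% had all 6 imazalil arrays above DMSO and 0.956% had all 6 below. How many had the 3 µM arrays apart from the 1 µM arrays was not counted. The pooled difference was 1.54 ± 0.18 (SE, 6 against 3 arrays), which is 2.90-fold with a 95% interval of 2.24 to 3.76 (limma, adjusted p = 1.41e-04). Leaving out replicate 1 of every group ended the call (difference 1.42, adjusted p = 0.124), while leaving out any single array did not.

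**Figure D1:**
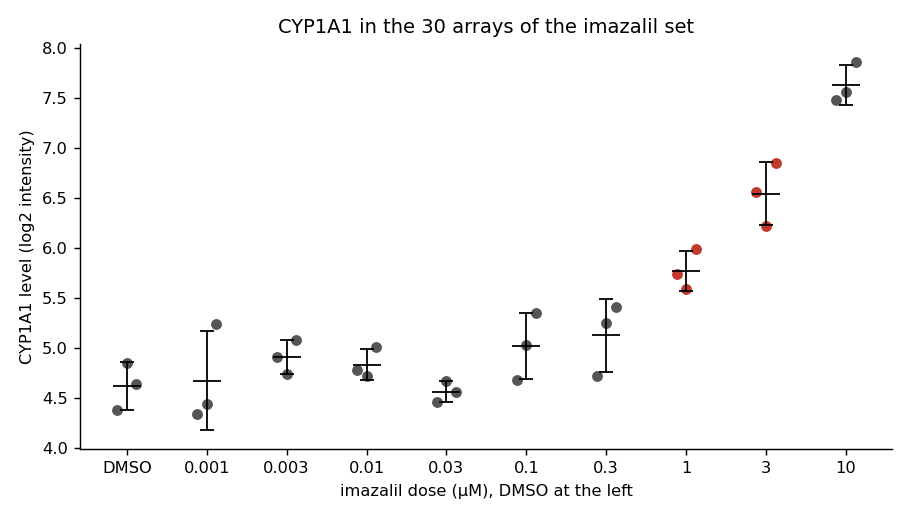
CYP1A1 level (log2 intensity, vertical axis) on each of the 30 arrays of the imazalil set, by group from DMSO to 10 µM. Points are arrays, red at 1 and 3 µM, and bars show the group mean and SD (n = 3). The 6 red points sit between 5.58 and 6.85, above the 3 DMSO points at 4.37 to 4.85.

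With the doses taken one at a time, the call of CYP1A1 at 1 µM depended on the fit. At 3 µM the difference from DMSO was 1.93 ± 0.21 (SE), or 3.80-fold with a 95% interval of 2.82 to 5.12, and CYP1A1 was the 1 gene called (0.00506% of genes, adjusted p = 2.94e-05, with 654 genes at an unadjusted p under 0.05). At 1 µM it was 1.15 ± 0.21, or 2.22-fold with an interval of 1.65 to 2.99, and no gene was called (0% of genes, 505 at an unadjusted p under 0.05). CYP1A1 had the unadjusted p of 9.93e-06 and the adjusted p of 0.196 there. With the replicate number as a block, which gives each number a level of its own across the groups, CYP1A1 was the 1 gene called at 1 µM (adjusted p = 0.00225). The difference between 3 µM and 1 µM was 0.78, with an interval of 0.34 to 1.21, and its unadjusted p of 0.00104 did not pass over all genes, where 0 were called (497 at an unadjusted p under 0.05).

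The lower doses place these levels in a series. Against DMSO, CYP1A1 differed by 0.05 at 0.001 µM, 0.29 at 0.003 µM, 0.21 at 0.01 µM, -0.06 at 0.03 µM, 0.40 at 0.1 µM and 0.50 at 0.3 µM, each with an SE of 0.21 and none called. The step to 1.15 at 1 µM was followed by 1.93 at 3 µM and 3.01 at 10 µM. CYP1A1 was called at 3 and 10 µM in this series.

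A further comparison used the 9 arrays of the 3 lowest imazalil doses (0.001, 0.003 and 0.01 µM) in place of DMSO, so that no array was shared with the comparison above except the 6 imazalil arrays themselves. Those 9 arrays had CYP1A1 levels between 4.34 and 5.24, all below the lowest of the 6 arrays at 1 and 3 µM, 5.58. The difference was 1.35 ± 0.14 (SE, adjusted p = 5.33e-06) and CYP1A1 was again the 1 gene called, 0.00506% of the genes, beside 1307 genes at an unadjusted p under 0.05. Lying beyond 9 arrays is a stricter condition than lying beyond 3, so these shares cannot be set against those for DMSO. Here 14 genes (0.0708%) had all 6 arrays above these 9 and 5 genes (0.0253%) had all 6 below.

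CYP1A1 lies on chromosome 15. The AHR and ARNT pair binds DNA at sites with the core GCGTG, so the 250 bases before the RefSeq start (GRCh38.p14) are shown for CYP1A1 and for AHRR and TIPARP, the other listed AHR targets whose window held that core on either strand (CACGC on the opposite one). Each reads 5′ to 3′ in the sense of its gene and capitals mark the core. The windows are chr15:74725529-74725778 on the minus strand for CYP1A1, chr5:321464-321713 on the plus strand for AHRR and chr3:156674340-156674589 on the plus strand for TIPARP.
CYP1A1: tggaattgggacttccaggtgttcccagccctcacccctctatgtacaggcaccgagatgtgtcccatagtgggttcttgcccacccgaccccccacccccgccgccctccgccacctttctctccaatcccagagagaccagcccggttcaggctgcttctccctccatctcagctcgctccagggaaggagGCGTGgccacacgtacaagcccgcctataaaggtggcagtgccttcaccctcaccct
AHRR: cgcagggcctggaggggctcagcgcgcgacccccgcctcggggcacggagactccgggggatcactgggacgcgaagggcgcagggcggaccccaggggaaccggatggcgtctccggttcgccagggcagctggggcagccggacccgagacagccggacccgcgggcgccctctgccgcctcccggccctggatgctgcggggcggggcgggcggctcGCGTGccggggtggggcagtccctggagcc
TIPARP: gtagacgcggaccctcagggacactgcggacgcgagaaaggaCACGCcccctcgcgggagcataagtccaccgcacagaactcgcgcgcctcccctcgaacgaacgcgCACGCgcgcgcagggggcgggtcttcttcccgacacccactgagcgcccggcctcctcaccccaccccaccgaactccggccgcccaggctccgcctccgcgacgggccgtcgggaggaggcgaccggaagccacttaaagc
The core began 57 bases before the start of CYP1A1 and 30 before that of AHRR, and it occurred 208 and 142 bases before that of TIPARP on the opposite strand. It was found in 31.9% of the 27305 windows of this length, and in 3 of the 6 listed AHR targets that had one. The windows of CYP1A2, NQO1 and CYP2S1 held no such letters, and CYP1B1 and ALDH3A1 were not shown. A match describes these letters and not a bound site.

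None of the other AHR targets was called. Of 8 listed targets, the 7 beside CYP1A1 lay between -0.10 and 0.10 in the pooled comparison, with 4 of the 8 above 0 and a list median of -0.01. Over all genes 48.3% lay above 0 and the median was -0.0033. TIPARP, a mono-ADP-ribosyltransferase that feeds back on AHR, had levels of 6.65, 6.60 and 6.79 at 1 µM, 6.60, 6.68 and 6.80 at 3 µM, and 6.79, 6.71 and 6.70 in DMSO. These groups overlapped, and the difference was -0.04 with a 95% interval of -0.19 to 0.11. NQO1, a quinone reductase that NRF2 also controls, was bright and differed by 0.03.

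CYP1A2 and CYP1B1, the other enzymes of the CYP1 family, and AHRR, the repressor of AHR, were dim. CYP1A2 had levels between 3.72 and 4.02 at 1 and 3 µM and between 3.51 and 4.12 in DMSO, with a difference of 0.10 (interval -0.16 to 0.36). CYP1B1 averaged 2.72 in the imazalil arrays and 2.79 in DMSO, and AHRR averaged 2.54 in the imazalil arrays and 2.63 in DMSO, all below the array medians of 3.90 to 3.94. Their differences were -0.07 for CYP1B1 and -0.08 for AHRR. AHR itself averaged 7.90 in the imazalil arrays and 7.98 in DMSO. ARNT averaged 4.93 in the imazalil arrays and 4.96 in DMSO, and of the 7 measured parts of AHR signalling 0 were called.

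**Figure D2:**
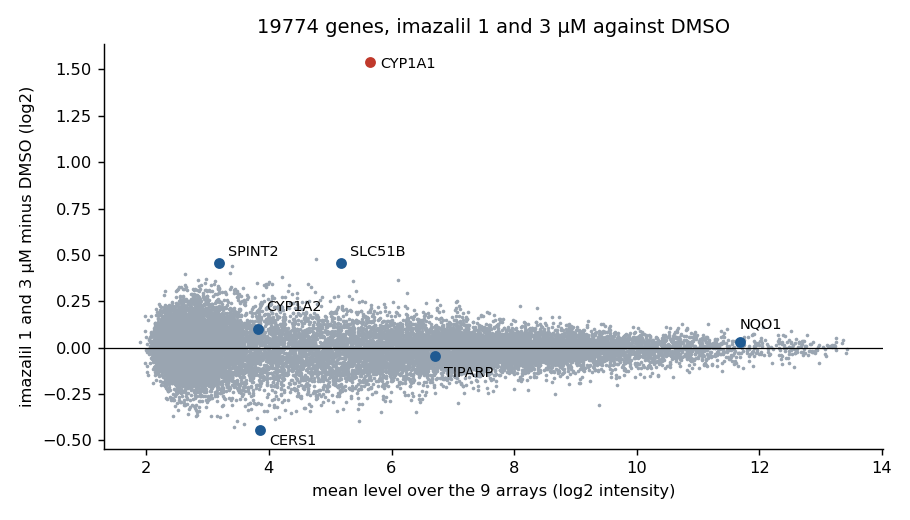
Log2 difference of imazalil 1 and 3 µM from DMSO (vertical axis) against the mean level over the 9 arrays (horizontal axis, log2 intensity) for 19774 genes, each a grey point, with 7 genes marked. CYP1A1 stands at 1.54 while SPINT2 and SLC51B, next among the marked genes, stand at 0.46.

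Targets of PXR and CAR lay mostly a little above DMSO, with none called. Of 12 measured members 10 were above 0, where 48.3% of all genes were, and the median was 0.10. ALAS1, the first enzyme of haem synthesis, had levels of 7.57, 7.46 and 7.45 at 1 µM, 7.50, 7.54 and 7.61 at 3 µM, and 7.36, 7.36 and 7.33 in DMSO. All 6 imazalil arrays were above the 3 DMSO arrays, the difference was 0.17 (interval 0.01 to 0.33), and its unadjusted p of 0.0373 came to an adjusted p of 1. Against the 3 lowest doses it differed by 0.15, but only 6 of the 12 members were above 0 there, where 52.2% of all genes were, and the list median was 0.02. CYP3A4 and CYP2B6, the standard readouts of PXR and of CAR, were dim in both groups. CYP3A4 differed by -0.04 (interval -0.27 to 0.20) and CYP2B6 by 0.13 (interval -0.18 to 0.44), and the drug exporter ABCB1 by 0.17.

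Genes of cholesterol synthesis lay near DMSO. Of the 18 measured members 11 lay above 0, the median was 0.01 and 0 were called. CYP51A1 had levels of 9.61, 9.70 and 9.59 at 1 µM, 9.74, 9.68 and 9.64 at 3 µM, and 9.66, 9.75 and 9.52 in DMSO, which overlapped throughout. Its difference was 0.02, with an interval of -0.14 to 0.17. HMGCS1, which makes the HMG-CoA that enters the pathway, differed by 0.17 (interval -0.01 to 0.35). SQLE, the squalene epoxidase, differed by -0.09. The 13 genes of fatty acid and triglyceride synthesis had a median of 0.00, with 7 above 0.

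No member of the stress lists was called against DMSO. The median was -0.0026 for 10 NRF2 targets, 0.03 for 11 genes of the integrated stress response, 0.01 for 10 ER chaperones, -0.03 for 9 p53 targets and -0.03 for 7 metallothioneins. HMOX1, the haem oxygenase that oxidants induce, averaged 8.47 in the imazalil arrays and 8.49 in DMSO. CDKN1A, the p53 target that halts the cell cycle, averaged 6.78 in the imazalil arrays and 6.73 in DMSO, with a difference of 0.05 (interval -0.13 to 0.23). The 14 cell cycle genes had a median of -0.01, and the medians were 0.04 for 7 PPARA targets, -0.05 for 8 genes under insulin and FOXO, -0.04 for 8 genes of MondoA and ChREBP and -0.02 for 10 immediate early genes. None of the members of these 5 lists was called.

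**Figure D3:**
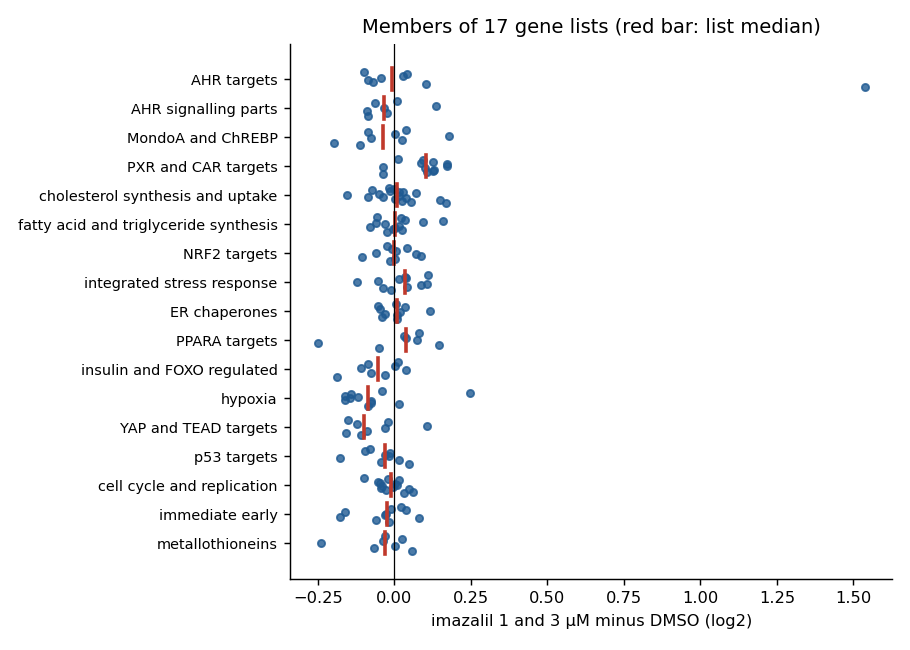
Log2 difference of imazalil 1 and 3 µM from DMSO (horizontal axis) for the measured members of 17 gene lists, 1 point per gene, with a red bar at each list median. CYP1A1 stands alone at 1.54 on the line of AHR targets, and every other member lies between -0.25 and 0.25.

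Of the 17 lists plotted, those with medians furthest below 0 were YAP and TEAD targets (median -0.10, 1 of 8 above 0) and hypoxia (median -0.08, 2 of 11 above 0), again with 0 genes called. The hypoxia gene EGLN3 went the other way, lying above DMSO by 0.25 with the doses pooled and by 0.37 at 3 µM. Hypoxia genes were also low against the 3 lowest doses, a comparison that reuses the same 6 imazalil arrays. The median was -0.15 there, and 6 of the 11 had an unadjusted p under 0.05 and were lower, against 2.97% of all genes. Those 6 were PDK1 (-0.25) and ANKRD37 (-0.20), the mitophagy receptors BNIP3L (-0.19) and BNIP3 (-0.18), VEGFA (-0.15) and the glucose transporter SLC2A3 (-0.15). Other lists also had such members there. Of 8 genes under insulin and FOXO, 3 were lower at that p (median -0.11). Of 10 NRF2 targets 2 were lower and 2 higher, and of 11 integrated stress genes 2 were higher, against 3.64% of all genes higher. SLC2A3 had levels of 9.98, 9.96 and 9.93 at 1 µM, 9.86, 9.98 and 9.79 at 3 µM, and 10.20, 9.98 and 10.04 in DMSO. Its 6 imazalil arrays lay below the 3 DMSO arrays, the closest pair nearly touching, and the difference of -0.16 had an unadjusted p of 0.0258 and an adjusted p of 1. YAP and TEAD targets did not keep this position against the lowest doses, with 3 of 8 above 0 and a median of -0.03.

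Outside the lists, the genes with the strongest statistics against DMSO did not pass the threshold and most were dim. SPINT2, a serine protease inhibitor, had levels of 3.32, 3.30 and 3.46 at 1 µM, 3.47, 3.12 and 3.35 at 3 µM, and 2.83, 3.00 and 2.82 in DMSO. The groups did not overlap, and the difference was 0.46 (unadjusted p = 1.02e-04, adjusted p = 1). MFAP3L (0.44), the tetraspanin gene CD82 (0.40) and TRIM31 (0.34), which encodes a ubiquitin ligase, followed with adjusted p of 1 each, at DMSO means between 2.82 and 3.11. Among lower genes were CERS1 (-0.45), a ceramide synthase, LECT2 (-0.37), a protein secreted by hepatocytes, ALDH1L2 (-0.37) and NOXRED1 (-0.30), all with an adjusted p of 1. The array medians of 3.90 to 3.94 place all of these but CERS1 among the dimmer genes.

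Other probe sets of these genes did not always move alike. MFAP3L had 4 further probe sets with differences between -0.05 and 0.07, and TRIM31 had 3 between -0.12 and -0.02. The other 2 of ALDH1L2 differed by 0.10 and -0.07. SOS1, a guanine nucleotide exchange factor for Ras, was bright and differed by 0.21 (unadjusted p = 0.0017), while its next brightest probe set differed by 0.00. MSRA, which repairs oxidised methionine, differed by -0.26 and -0.21 in its 2 probe sets.

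AUTS2, a gene linked to chromatin regulation, came nearest to the threshold at 3 µM. Its levels were 3.43, 3.24 and 3.57 at 3 µM and 2.92, 2.83 and 2.95 in DMSO, so that the groups did not overlap. How many of all genes had no overlap at 3 µM alone was not counted. The AUTS2 difference was 0.51 with an adjusted p of 0.0667. Without replicate 2 of 3 µM it was 0.60 and its adjusted p was 0.0174. That was the lowest adjusted p of the 12 settings that left out replicates, where the difference ranged from 0.43 to 0.60. With the replicate number as a block its adjusted p was 0.0179. The other 2 probe sets of AUTS2 differed at 3 µM by 0.19 and -0.10 (unadjusted p = 0.135 and 0.417). At 1 µM the levels of AUTS2 were 3.04, 2.76 and 3.04, which overlapped DMSO.

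Against the 3 lowest doses a few brighter genes came forward, chosen after their values were seen and none past the threshold. SLC51B, one chain of the transporter that exports bile acids, had levels of 5.14, 5.34 and 5.16 at 1 µM, 5.46, 5.33 and 5.50 at 3 µM, and 4.92, 4.83 and 4.85 in DMSO. The 9 arrays of the lowest doses reached from 4.40 to 5.12, so the 6 imazalil arrays lay above both sets of controls. Its difference was 0.49 from the lowest doses (adjusted p = 0.333) and 0.46 from DMSO (adjusted p = 1). CYP24A1, the enzyme that degrades active vitamin D, differed by 0.30 from the lowest doses, and its 6 arrays (6.96 to 7.21) overlapped those 9 (6.50 to 7.06).

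IGFBP1, which binds insulin-like growth factors, was lower by 0.43 than at the lowest doses (unadjusted p = 4.07e-04, adjusted p = 0.383). Its levels were 8.65, 8.74 and 8.59 at 1 µM, 8.43, 8.63 and 8.30 at 3 µM, and 9.02, 8.56 and 8.65 in DMSO. The imazalil and DMSO arrays overlapped and differed by -0.19 (interval -0.48 to 0.10), and the 9 arrays of the lowest doses spanned 8.64 to 9.78. TMEM45A and the glutamate transporter gene SLC1A2 also lay below the lowest doses, by 0.33 and 0.35, with adjusted p of 0.382 each.

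The comparison of 10 µM with 1 and 3 µM asked which genes differed between the top dose and these doses, and it used no DMSO array. It called 9 genes, 0.0455% of all, 5 higher (0.0253%) and 4 lower (0.0202%) at 10 µM, beside 1476 genes at an unadjusted p under 0.05. CYP1A1 rose further, by 1.48 ± 0.18 (SE, adjusted p = 1.02e-04), with levels of 7.48, 7.56 and 7.86 at 10 µM. All 3 of these exceeded the highest of the 6 arrays at 1 and 3 µM, 6.85. How many of all genes had the 10 µM arrays beyond those 6 was not counted.

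TXNIP, the arrestin family protein that follows glucose through MondoA, had the largest fall among the 9. Its levels were 7.65, 8.01 and 7.66 at 10 µM, against 8.50, 8.53 and 8.55 at 1 µM and 8.45, 8.48 and 8.60 at 3 µM. The 10 µM arrays lay below all of the others and the difference was -0.74 (adjusted p = 2.25e-05). At 1 and 3 µM TXNIP differed from DMSO, where it had 8.61, 8.65 and 8.63, by -0.11 (interval -0.28 to 0.05), with all 6 arrays below DMSO. Its other 2 probe sets, nearly as bright, lay further below DMSO at these doses, by 0.21 and 0.27 (unadjusted p = 0.0193 and 2.87e-04), and at 3 µM they differed by -0.29 and -0.39, the second with an adjusted p of 0.243 in limma over every probe set. Against the 3 lowest doses the 3 TXNIP probe sets differed by -0.01, -0.07 and -0.07. At 10 µM relative to 1 and 3 µM the other 2 were also called, with differences of -0.71 and -0.69. ARRDC4, its relative, differed at 1 and 3 µM from DMSO by -0.20 but from the 3 lowest doses by 0.05. At 10 µM it differed from 1 and 3 µM by -0.45 (limma, adjusted p = 0.358).

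MCC, named for mutation in colorectal cancers, rose by 0.98 at 10 µM relative to 1 and 3 µM (adjusted p = 5.08e-05). It had levels of 3.87, 4.07 and 4.03 at 10 µM, and lay between 2.77 and 3.31 at 1 and 3 µM and between 2.83 and 3.07 in DMSO. Thus the arrays at 1 and 3 µM overlapped DMSO and those at 10 µM did not. How many of all genes had the 10 µM arrays apart from DMSO was not counted. The other MCC probe set, which was dimmer, differed by 0.17 between 10 µM and 1 and 3 µM (adjusted p = 0.769 in limma over every probe set). The tubulin gene TUBB2B rose by 0.72, the zinc finger gene ZNF114 by 0.56 and HAMP, which encodes the iron hormone hepcidin, by 0.51. At 1 and 3 µM these 3 genes differed from DMSO by -0.16, 0.05 and 0.09. TUBB2B thus lay below DMSO at those doses, and it was not among the 21 genes called at 10 µM against DMSO. The Wnt inhibitor DKK1 fell by 0.40 at 10 µM, the DNA-binding protein gene ARID5B by 0.34 and the kinase gene SGK1 by 0.32, where their differences from DMSO at 1 and 3 µM were -0.11, -0.10 and -0.11. The other 4 probe sets of ARID5B, all far dimmer, differed by between -0.15 and 0.02 in the 10 µM comparison, none called, and the other probe set of ZNF114 differed by 0.54. Leaving out 1 replicate number from every group left 2 of these 9 calls without replicate 1, 1 without replicate 2 and 2 without replicate 3. CYP1A1 and MCC kept their calls without replicate 1 and without replicate 3, and TXNIP kept its call without replicate 2. TXNIP had adjusted p of 0.0735 and 0.0648 in the other cases, and CYP1A1 had 0.0897 without replicate 2.

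**Figure D4:**
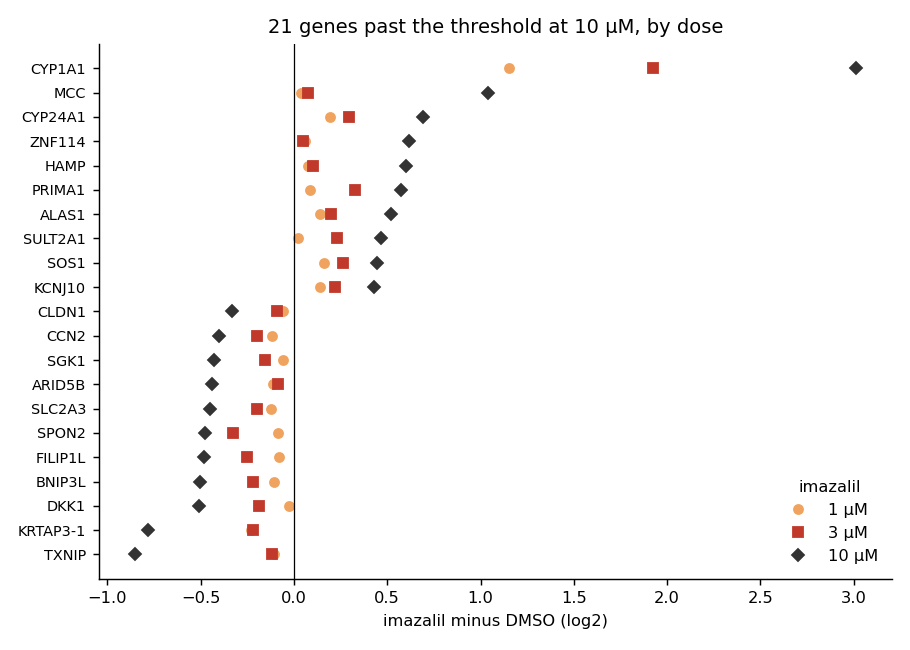
Log2 difference from DMSO (horizontal axis) at 1, 3 and 10 µM imazalil for the 21 genes that passed the threshold at 10 µM, 1 line per gene. CYP1A1 stands at 1.15, 1.93 and 3.01, while MCC stands at 0.04, 0.08 and 1.04 and TXNIP at -0.10, -0.12 and -0.85.

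The 21 genes called at 10 µM against DMSO (0.106% of all) were followed down to 1 and 3 µM. The 3 doses share the DMSO arrays, so their position against the 9 arrays of the 3 lowest doses is given. Of the 10 genes higher at 10 µM, 8 were above the lowest doses at 1 and 3 µM with a median of 0.14, and 5 of them had an unadjusted p under 0.05, where 3.64% of all genes did so in that direction. Of the 11 lower genes, 10 were below the lowest doses with a median of -0.13, and 7 had an unadjusted p under 0.05, against 2.97%. CYP1A1 was the 1 gene of the 21 that was called at 1 and 3 µM. This list was drawn from earlier results of these arrays, and 1 estimate of each gene's spread served both comparisons. Choosing genes by their call at 10 µM can thus raise their share at a low p. These shares are therefore not like for like with those of all genes.

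Differences from DMSO at each dose are given here for 6 of the genes called at 10 µM, and their shape was not tested. In all 6 the difference grew from 1 to 3 to 10 µM, while MCC stood at 0.04, 0.08 and 1.04. SOS1 differed from DMSO by 0.16 at 1 µM, 0.27 at 3 µM and 0.45 at 10 µM. ALAS1 differed by 0.14, 0.20 and 0.52 at these doses, KCNJ10, a potassium channel gene, by 0.14, 0.22 and 0.43, and CYP24A1 by 0.19, 0.30 and 0.69. SPON2, a secreted matrix protein, differed by -0.09, -0.33 and -0.48, and BNIP3L by -0.11, -0.22 and -0.50. None of these steps was called at 1 or 3 µM, and of these 6 genes 0 passed in the comparison of 10 µM with 1 and 3 µM.

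Fenbuconazole, an azole fungicide with a triazole ring in place of an imidazole, was set beside imazalil at matched doses of 1 and 3 µM, as 1 pair of compounds. Each set was centred on its own columns of the same 3 DMSO arrays, because the sets were normalized separately. Imazalil gave the higher CYP1A1 response. At 1 µM the DMSO-centred values were 1.12, 0.97 and 1.37 with imazalil and 0.18, 0.25 and 0.92 with fenbuconazole. At 3 µM they were 1.94, 1.60 and 2.24 with imazalil and 0.59, 0.90 and 1.03 with fenbuconazole. At each of these doses every imazalil array lay above every fenbuconazole array. The share of all genes separated in this way at 1 dose was not counted. Over both doses the compounds overlapped, with a lowest imazalil value of 0.97 and a highest fenbuconazole value of 1.03.

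Over both doses the difference between the compounds in CYP1A1 was 0.89 ± 0.16 (SE, 6 against 6 arrays), or 1.86-fold, with an adjusted p of 0.0113. CYP1A1 was 1 of 2 genes called, 0.0101% of all. At single doses the differences were 0.70 (interval 0.25 to 1.15) at 1 µM and 1.09 (interval 0.64 to 1.54) at 3 µM, with adjusted p of 0.759 and 0.155. The difference at 3 µM was called with the replicate number as a block (adjusted p = 3.64e-05). At 1 µM without the block 0 genes were called (0% of genes, 1078 at an unadjusted p under 0.05), and at 3 µM 0 were called without it (0% of genes, 976 at an unadjusted p under 0.05). The other called gene was LINC01111, a long non-coding RNA gene, lower with imazalil by 0.45 (adjusted p = 0.00318). It averaged -0.28 with imazalil and 0.16 with fenbuconazole, all 6 imazalil arrays lay below all 6 fenbuconazole arrays as in 0.248% of genes, and it was dim in DMSO (mean 3.16). Neither call held without replicate 1 or without replicate 2, where the adjusted p were 0.523 and 0.199 for CYP1A1 and 0.523 and 0.18 for LINC01111. Without replicate 3 CYP1A1 was called (adjusted p = 0.00642) and LINC01111 was not (0.141).

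**Figure D5:**
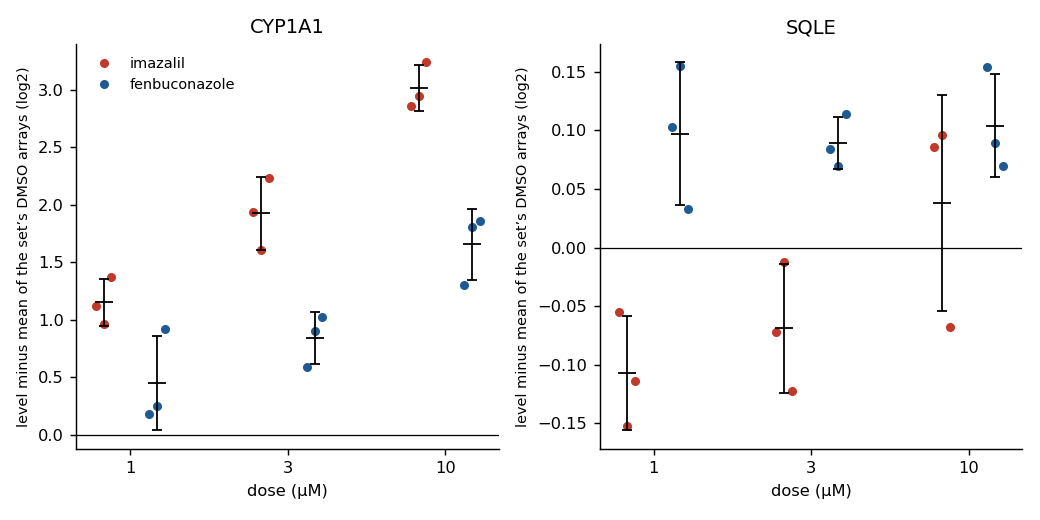
CYP1A1 and SQLE levels minus the mean of the set's DMSO arrays (log2, vertical axes, scaled separately) for imazalil in red and fenbuconazole in blue at 1, 3 and 10 µM. Points are arrays and bars the mean and SD (n = 3). In CYP1A1 the imazalil points lie above the fenbuconazole points at every dose shown, and in SQLE they lie below them at 1 and 3 µM.

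Cholesterol synthesis genes lay the other way, with 0 called. Relative to DMSO the median of the 18 members was 0.01 with imazalil, 11 of them above 0, and 0.13 with fenbuconazole, 16 of them above 0. Imazalil was above fenbuconazole in 2 of the 18, where it was in 54.6% of all genes, with a list median of -0.16 where the median of all genes was 0.01. At an unadjusted p under 0.05, 11 of the 18 were lower with imazalil, against 2.93% of all genes. TM7SF2, a sterol reductase, averaged -0.16 with imazalil and 0.12 with fenbuconazole. SQLE averaged -0.09 with imazalil and 0.09 with fenbuconazole, and HMGCS1 averaged 0.17 with imazalil and 0.37 with fenbuconazole. The differences were -0.28, -0.18 and -0.21, with adjusted p of 0.268 for TM7SF2 and SQLE and 0.44 for HMGCS1. SQLE and TM7SF2 had all 6 imazalil arrays below all 6 of fenbuconazole, and CYP51A1 differed by -0.12 (interval -0.24 to 0.01).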

How the data were processed

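Gene expression was measured in total RNA on Affymetrix arrays with 3′ labelling. The authors deposited log2 intensities per probe set, normalized by RMA within each compound's set. The submitters' processing notes name RMA and Partek, with versions and settings not given in the sources used here. No genome build is named for the values. Of 54715 probe sets, 102 were controls, 40914 had 1 gene symbol in the platform annotation, 864 had several and 12835 had none. Each gene was represented by the single-symbol probe set that was brightest on average across the 90 columns, and no dim gene was left out. For arrays, the number of replicates limits the precision, with 3 per group.

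Differences were tested with limma 3.58.1 under R 4.3.3, applying lmFit and eBayes to the 30 columns of the imazalil set, 1 mean per group and no replicate block, two-sided, with Benjamini-Hochberg adjustment over all genes of a comparison and a threshold of 0.05. Imazalil and fenbuconazole were compared on the DMSO-centred treated columns of both sets. Intervals are 95% intervals for single genes. The steps were tested on simulated data. The alternatives were a replicate block, the 9 arrays alone, a trended robust variance, removal of the genes below the median level, joint quantile normalization, the spread of each array as a covariate, the median of a gene's probe sets, every probe set, and each replicate left out.

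A total of 18 gene lists with 206 entries, 192 of them measured, covered AHR targets and signalling, MondoA, PXR and CAR, cholesterol, fatty acids, NRF2, integrated stress, ER chaperones, PPARA, insulin and FOXO, hypoxia, YAP and TEAD, p53, cell cycle, immediate early genes, metallothioneins and the 21 genes called at 10 µM. The remaining entries were not analysed here. Genes were named by a rule: up to 10 per direction among those called in each comparison, the 10 highest and 10 lowest moderated statistics of the pooled comparison, up to 4 members per list with an unadjusted p under 0.05, the 21 genes called at 10 µM, and a fixed set around AHR, sterol and stress genes. Genes named against the lowest doses outside this rule were picked with their values in view. The members, lists, rule and comparisons were chosen with earlier results of these data known. Promoter windows are from RefSeq, GRCh38.p14.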

Additional observations from a re-analysis of the deposited data

Results flagged for a closer look

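Between doses, 9 genes differed at 10 µM from 1 and 3 µM by a test of the difference itself. CYP1A1 was higher by 1.48, MCC by 0.98, TUBB2B by 0.72, ZNF114 by 0.56 and HAMP by 0.51 (log2), and TXNIP differed by -0.74, DKK1 by -0.40, ARID5B by -0.34 and SGK1 by -0.32. Between compounds at 1 and 3 µM, CYP1A1 differed by 0.89 and LINC01111 by -0.45, imazalil minus fenbuconazole.

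In probe sets outside the gene table, 2 passed the threshold between 10 µM and 1 and 3 µM, both with an adjusted p of 0.0105 in a fit of every probe set with limma. A probe set without a gene symbol was higher at 10 µM by 0.57, and a probe set with several symbols differed by -0.39.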

How the results depend on the processing

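The pooled call of CYP1A1 against DMSO held under all 8 alternatives that kept every array of the groups compared. Log2 differences lay between 1.53 and 1.55, with adjusted p up to 0.011. Its call at 3 µM held under all 20 alternatives, with adjusted p up to 0.0414. With replicates left out, the number of called genes ranged between 0 and 1 for the pooled doses, 1 and 3 at 3 µM, 1 and 2 against the 3 lowest doses, 1 and 2 for 10 µM against 1 and 3 µM, and 0 and 1 against fenbuconazole, and it stayed at 0 for 1 µM and for 3 µM against 1 µM. At 3 µM the 3 genes were called without 3 µM replicate 2, and 2 genes were called without replicate 2, without 1 µM replicate 2 and with the median of the probe sets. The 10 µM comparison with 1 and 3 µM called 25 genes with a trended robust variance and 14 each without dim genes and with every probe set. The fenbuconazole comparison called 1 gene without dim genes and 4 with the median of the probe sets. The cause of these shifts was not tested.

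Each replicate number goes with a P code (P1, P2 or P3) in the labels, shared across doses and DMSO, and the labels leave unsaid whether it marks a plate or another batch. The main fit did not take the numbers as pairs. In the arrays of DMSO, 1 µM and 3 µM, 2 of 9 same-numbered pairs had deviations correlating above 0.1 (range -0.281 to 0.158). Pairs with different numbers reached further, from -0.287 to 0.372. The highest joined DMSO replicate 1 and 3 µM replicate 2, the arrays named above for their ACTB values. In 5 of 9 comparisons an array correlated best with its own number. That check left out the other arrays of the fit, so it cannot decide whether a batch is shared across all doses. With the replicate block, 1 gene was called at 1 µM (CYP1A1, adjusted p = 0.00225) and 2 at 3 µM (CYP1A1 and AUTS2, the second at an adjusted p of 0.0179), and the 3 µM difference of CYP1A1 from fenbuconazole was called (adjusted p = 3.64e-05). The cause of these gains was not tested.

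Single genes that changed direction were far from the threshold. With the median of a gene's probe sets, the pooled difference was 0.0856 for ALDH1L2, -0.0383 for CDKN1A, -0.0641 for MFAP3L, 0.0499 for ST18 and 0.1353 for ZNF555, and COL27A1 differed from the lowest doses by 0.0434. ARID5B differed by -0.1079 at 10 µM with that setting and was not called (adjusted p = 0.824). With replicates left out, the pooled difference ranged from -0.0621 to 0.1781 for CDKN1A, from -0.0387 to 0.331 for CYP1A2, from -0.0283 to 0.3335 for CYP2B6, from -0.1234 to 0.0202 for CYP3A4, from -0.0475 to 0.0696 for CYP51A1, from -0.0726 to 0.0203 for HMOX1, from -0.0153 to 0.1171 for MCC, from -0.1562 to 0.0456 for PDK4, from -0.1149 to 0.0154 for TIPARP and from -0.005 to 0.1119 for ZNF114.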
